A study of Drosophila melanogaster with 3 samples.

Results

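The nuclear transfer RNA (tRNA) genes of Drosophila melanogaster were examined as a class of binding sites of E(bx). Members were all genes of biotype tRNA on the main chromosome arms in the gene models of Ensembl release 115 for the dm6 build, which gave 290 of 18164 annotated genes. They fell into 22 classes by the amino acid they carry, with the initiator methionine (iMet) and selenocysteine (SeC) tRNAs as classes of their own. Genes within 1000 bp of each other were joined into 174 loci, of which 105 held a single gene and 69 held several.

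Sites of E(bx), also called NURF301, were mapped by ChIP-seq (chromatin immunoprecipitation followed by sequencing) in whole Drosophila embryos aged 0 to 16 h, of both sexes mixed. All embryos came from 1 transgenic line in which green fluorescent protein is fused to the C terminus of E(bx), so there was 1 group, of 3 biological replicates with a biosample each, and no untreated or untagged group in these files. The description names an antibody to the fluorescent protein, whereas the antibody field names E(bx). Chromatin was sheared by sonication to 200 to 800 bp, whole embryos mix all their cell types, the depth of the libraries is unknown because the peak lists carry no read totals, and control data were not analysed here, so loci that precipitate with any antibody cannot be told apart from sites of E(bx).

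Transfer RNA genes are short and are transcribed by RNA polymerase III from promoter elements inside the gene. The A box and the B box are bound by the factor TFIIIC, which places TFIIIB just upstream of the start, and TFIIIB recruits the polymerase, which stops at a run of T past the gene. E(bx) belongs to NURF, a complex that slides nucleosomes with the ATPase Iswi and is best known from promoters of RNA polymerase II.

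The strongest summit near any tRNA gene lay at tRNA:Pro-CGG-2-3, a proline tRNA gene at 3L:18618390-18618461 on the plus strand, inside an exon of the gene not. Its sequence is shown because it carries the strongest summit, from 150 bp upstream to the gene's last base (3L:18618240-18618461, plus strand, Release 6 genome, RefSeq copy), with the A box (T, G, A and G at its positions 1, 3, 7 and 11) and the B box letters GTTCNANNC in capitals.
Pro-CGG-2-3: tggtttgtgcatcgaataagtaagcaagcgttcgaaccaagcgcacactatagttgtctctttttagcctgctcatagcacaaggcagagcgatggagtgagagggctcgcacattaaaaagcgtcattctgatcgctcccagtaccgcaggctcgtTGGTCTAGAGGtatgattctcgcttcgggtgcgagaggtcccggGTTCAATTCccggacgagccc
The summit had a signal value of 3511, rank 8 of the 9708 peaks of the reproducible set, and lay at -120 bp, where negative positions are upstream of the annotated start. The signal value is the peak height as the authors' caller wrote it, on a scale that is not stated. In the replicates' own lists this peak had signal values of 1139.7 in replicate 1, 1436 in replicate 2 and 928 in replicate 3, at ranks 23, 11 and 10. It was thus among the best peaks of every library, but the start of CG13380 lay 327 bp from the summit, so the peak cannot be assigned to the tRNA gene alone.

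The label was checked against the sequences. The A box letters were found in the first 40 bases of 289 of the 290 genes, against 11.0% of protein-coding genes; the exception was the selenocysteine gene tRNA:SeC-TCA-1-1. The B box letters were found in 271 genes on the gene's own strand, against 2.12% of protein-coding genes in their first 100 bases. Of the 19 others, 12 were Ala-AGC genes, 6 were iMet genes and 1 was a threonine gene, and 18 of them read GATCNANNC at that place, a form searched for after the sequences were seen and held by 1.48% of protein-coding genes. A run of T (TTTT) followed within 30 bp of the end of 277 genes, a share of 95.5%, against 41.8% of protein-coding genes.

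A summit of the reproducible set, the peaks that passed the authors' IDR comparison of the replicates, lay within 500 bp of the start of 190 of the 290 tRNA genes (65.5%). The same was true of 42.3% of all annotated genes, of 50.3% of protein-coding genes and of 36.1% of genes with 1 annotated start. Within 100 bp the share was 40.3% of tRNA genes and 29.2% of all genes, within 250 bp it was 52.1% and 37.1%, and within 1000 bp it was 69.3% and 46.9%. The share for tRNA genes was therefore above that of all genes at each of these distances when every reproducible peak was counted. Among the stronger peaks the order turned: with the peaks above the median signal value of the set, 59 tRNA genes (20.3%) had a summit within 500 bp, against 30.7% of all genes and 37.8% of protein-coding genes.

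Each replicate's own list gave nearly the same count. With the best 9708 peaks of each list, 178 tRNA genes had a summit in replicate 1, 181 in replicate 2 and 185 in replicate 3, or 62.5% ± 1.21 (SD, n = 3), against 42.2%, 42.3% and 41.2% of all genes. Of the 190 tRNA genes with a reproducible summit, 154 had one among the best peaks of all 3 replicates, 23 in 2 replicates and 13 in 1. Of the 100 tRNA genes without one, 80 had none in any replicate.

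The tRNA genes without a reproducible summit mostly had a weaker one. The relaxed list called on the pooled reads placed a summit within 500 bp of 257 tRNA genes (88.6%), against 54.9% of all genes. The 67 genes found only there had signal values of 34.7 to 154, with a median of 92.3, and the weakest reproducible summit at a tRNA gene had 156. The relaxed list includes background by design, and 33 tRNA genes had no summit even there.

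Clustered tRNA genes had a summit more often than lone ones. Of the 185 genes in loci of 2 or more, 145 (78.4%) had a reproducible summit within 500 bp, whereas 45 of the 105 lone genes did (42.9%), a share close to the 42.3% of all genes. In the best lists of replicates 1, 2 and 3 it was 134, 136 and 143 of the 185 clustered genes, against 44, 45 and 42 of the 105 lone genes, so the shares of the libraries did not overlap (74.4% ± 2.55 and 41.6% ± 1.45, SD, n = 3). Per locus, 58 of 69 loci of several genes (84.1%) and 45 of 105 lone genes had a summit, and over all loci 103 of 174 (59.2%). A locus of several genes covers more sequence and 1 summit can serve several genes, so the windows are not equal: of 149 summits, 77 had 1 tRNA start within 500 bp, 58 had 2 and 14 had 3. Within 100 bp of the start the shares were 44.9% of clustered genes and 32.4% of lone genes.

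Transfer RNA genes away from other promoters had summits as well. Of 190 tRNA genes with no start of another kind of gene within 1000 bp, 120 had a reproducible summit (63.2%), with 58.9%, 61.1% and 60.5% in replicates 1, 2 and 3, against 70 of the 100 tRNA genes that had such a neighbour (70.0%). Split further, 95 of 122 clustered genes without such a neighbour had a summit (77.9%), against 25 of 68 lone ones (36.8%). For protein-coding genes with 1 start and no other gene's start within 1000 bp the share was 27.1%, and for non-coding RNA genes of that kind it was 3.87%. In the replicates the lone, isolated tRNA genes had shares of 36.8%, 39.7% and 30.9%, all above the 27.1% that isolated protein-coding genes had in the reproducible set.

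**Figure D1:**
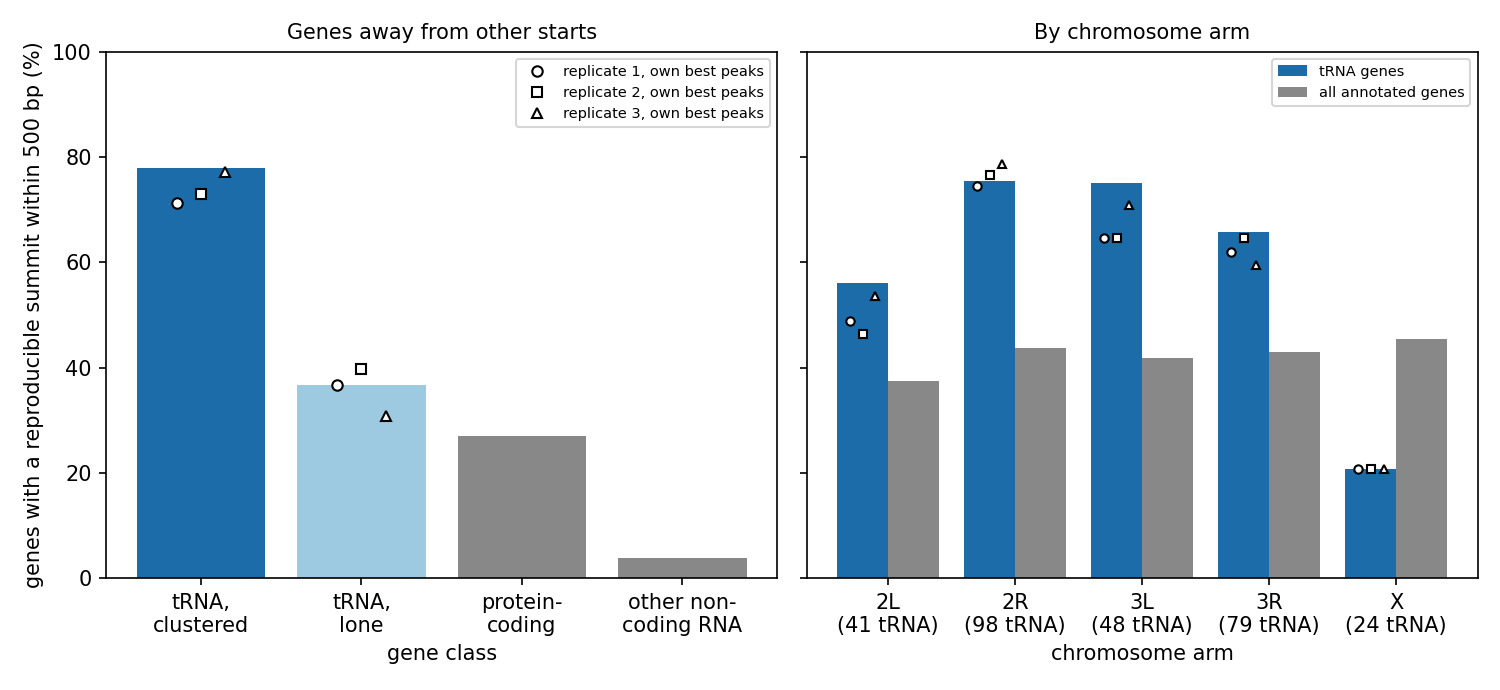
Left, share of genes with a summit within 500 bp of the start (%) for tRNA genes in clusters and lone tRNA genes, with no start of another kind of gene within 1000 bp, and for protein-coding and other non-coding RNA genes with 1 start and no start of any other gene within 1000 bp, so that only the clustered tRNA genes have near neighbours; right, the same share by chromosome arm for all tRNA genes beside all annotated genes. Bars are the reproducible set and points the best peaks of each replicate. Clustered tRNA genes stand at 77.9% and lone ones at 36.8%, and X is the arm on which the tRNA share, 20.8%, lies under that of all genes, 45.4%.

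Summits at tRNA genes were weaker than most. The 149 distinct summits within 500 bp of a tRNA start, 1.53% of the reproducible set, had a median signal value of 358 (quartiles 221 and 535), against 525 (quartiles 270.2 and 933) for the other 9559. Only 39 of the 149 (26.2%) were above the median signal value of the whole set. The 92 summits with no start of another kind within 1000 bp had a median of 331, and the 57 with such a start had a median of 416. Median ranks were 6997.5, 6594.5 and 5164 in replicates 1, 2 and 3, against 4443, 4438.5 and 4232.5 for all other reproducible summits, so tRNA summits ranked lower in every library, by the smallest margin in replicate 3. Their peaks had a median width of 376 bp, against 442 bp for the others.

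Summits sat just upstream of tRNA genes. The median position of the 149 summits from the nearest tRNA start was -22 bp (quartiles -46 and 5), and 76 of them (51.0%) fell between -50 and -1 bp. Medians in the best lists of replicates 1, 2 and 3 were -18, -22 and -26 bp, with an SD of 4.0 bp. At protein-coding starts the median of the other 6894 summits was -45 bp (quartiles -104 and -11), and 34.8% lay between -50 and -1 bp. At lone tRNA genes with no start of another kind within 1000 bp, where the assignment is least ambiguous, 21 of 25 summits lay within 100 bp of the start, with a median at -21 bp. The gap to the protein-coding median was larger than the spread of the tRNA medians between replicates. The protein-coding median is given for the reproducible set only. Positions count from annotated starts, and whether those of tRNA genes mark the first transcribed base was not examined.

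**Figure D2:**
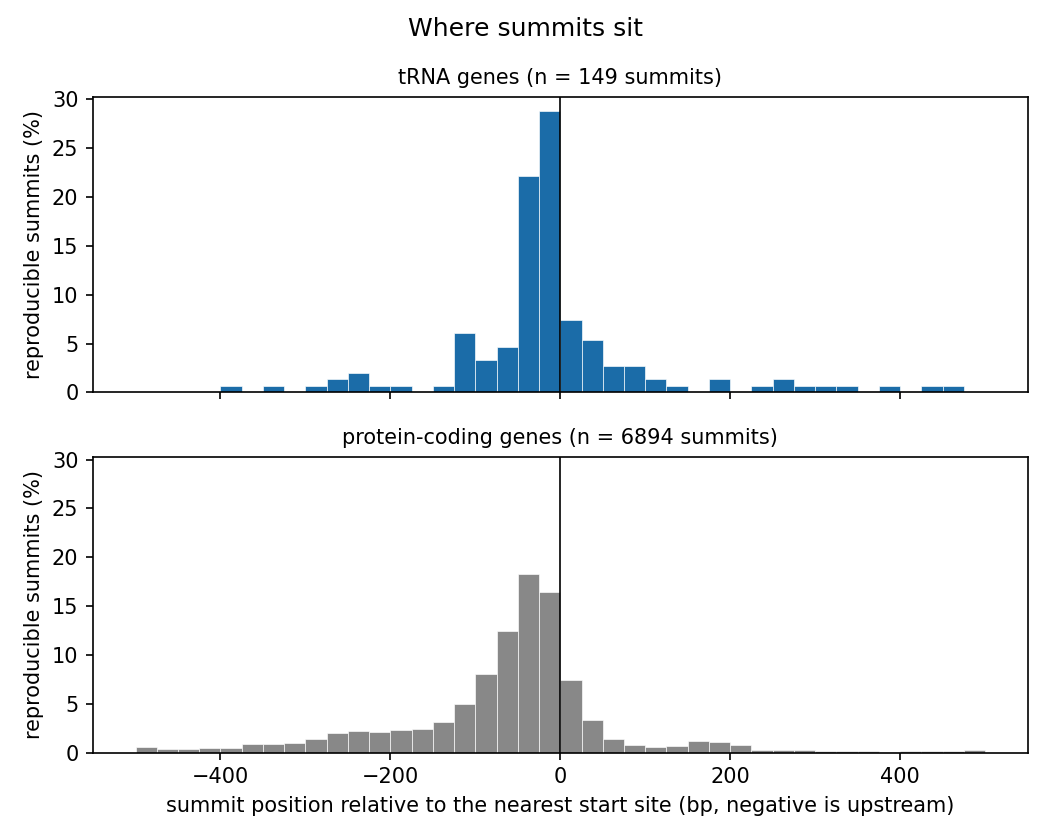
Position of reproducible summits relative to the nearest start site (bp, negative is upstream) in bins of 25 bp, as a share of summits (%), for 149 summits at tRNA genes above and 6894 other summits at protein-coding starts below. The tRNA summits are concentrated in the 50 bp upstream of the start, which hold 51.0% of them, against 34.8% for protein-coding starts.

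Among the amino acids, isoleucine stood highest, with a summit at 11 of 11 genes, and glycine lowest of the classes with several genes, with 8 of 20. Phenylalanine had 7 of 8, leucine 18 of 22, histidine 4 of 5, aspartate 11 of 14 and alanine 13 of 17. Glutamate and lysine each had 14 of 19, valine 11 of 15, cysteine 5 of 7, asparagine 7 of 10 and initiator methionine 4 of 6. Proline had 11 of 17, threonine 10 of 17 and glutamine 7 of 12, and the classes named so far, glycine apart, lay above the 50.3% of protein-coding genes. Arginine had 13 of 26, serine 10 of 20, tyrosine 5 of 10, tryptophan 4 of 8, elongator methionine 3 of 6 and selenocysteine 0 of 1. Genes of an amino acid share loci, so these shares rest on fewer independent places, such as 6 loci for isoleucine and 16 for glycine.

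Within an amino acid the anticodons differed. All 13 genes of the lysine tRNA Lys-CTT had a reproducible summit, against 1 of 6 of the lysine tRNA Lys-TTT. In the replicates' best lists Lys-CTT had 13, 9 and 13 genes with a summit and Lys-TTT had 1, 0 and 1. The contrast was read from the reproducible set, which rests on these same replicates, so their order is not separate evidence. All 9 genes of Ile-AAT and all 8 of Leu-CAG had a reproducible summit, whereas 4 of 14 of Gly-GCC and 3 of 10 of Arg-TCG did. Such genes share loci, 9 for Lys-CTT, 11 for Gly-GCC and 5 each for Lys-TTT, Ile-AAT, Leu-CAG and Arg-TCG. tRNA:Lys-TTT-2-1 to tRNA:Lys-TTT-2-4 lie together at 3R:6819894-6823035 in partly repeated sequence, and the 1 Lys-TTT summit lay at -295 bp. The 4 identical Arg-TCG-3 genes, all on X, had none. The part of repeats and of X in these contrasts was not tested.

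**Figure D3:**
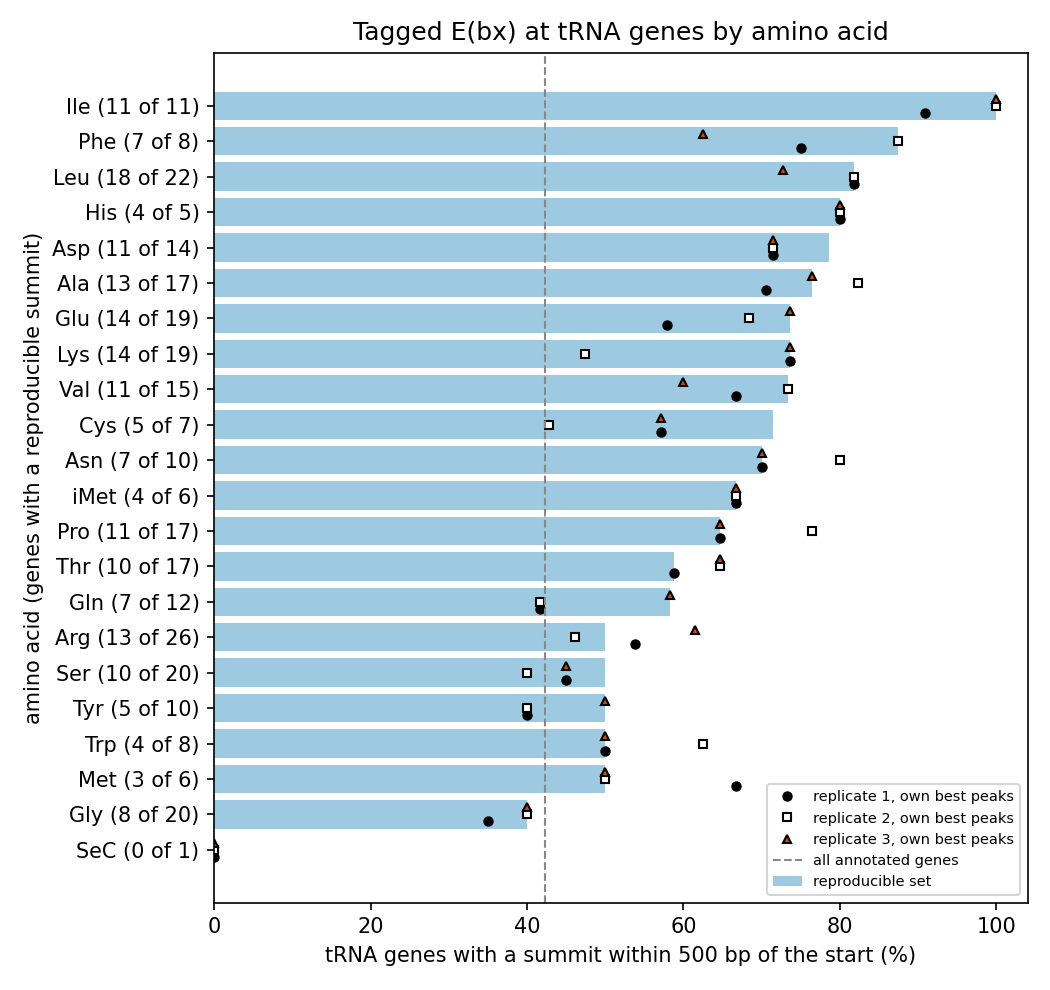
Share of tRNA genes with a summit within 500 bp of the start (%) for each amino acid, with the count in brackets. Bars are the reproducible set, points are the best peaks of each replicate, and the dashed line is the 42.3% of all annotated genes; replicate 2 lies lowest for lysine, at 47.4%.

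The tRNA genes on X departed from those on the other arms. Of 24 tRNA genes on X, 5 had a reproducible summit (20.8%), and each replicate's best list also gave 5, while 45.4% of all genes on X had one. Off X the count was 185 of 266 tRNA genes (69.5%), against 41.7% of all genes. By arm it was 74 of 98 on 2R (all genes 43.7%), 36 of 48 on 3L (41.9%), 52 of 79 on 3R (42.9%) and 23 of 41 on 2L (37.4%), and no tRNA gene was annotated on chromosome 4. Both kinds of locus were low on X, with 3 of 14 clustered and 2 of 10 lone genes, against 142 of 171 and 43 of 95 off X. Weak summits were nonetheless present, since 21 of 24 tRNA genes on X had one in the relaxed list (all genes on X 59.5%), close to 236 of 266 off X, with a median strongest signal value of 105 on X and 312 off X. Counted by locus, 3 of 14 loci on X and 100 of 160 off X had a reproducible summit. Many of the genes on X are arginine and serine genes of a single region, X:14014814-14117810, so they are not independent places. At the 2 lone genes on X with a summit, tRNA:Phe-GAA-1-2 and tRNA:Pro-CGG-2-1, it lay 111 bp from a start of RpL17 and 291 bp from a start of Bx.

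Position inside another gene moved the share little. A summit was found at 83 of 127 tRNA genes inside an intron of another gene (65.4%), 101 of 155 between genes (65.2%) and 6 of 8 inside an exon. In the best lists the intronic genes had 57.5%, 60.6% and 60.6% and those between genes 64.5%, 63.2% and 66.5%. Of the 76 tRNA genes that lie in a host gene of the opposite strand 49 had one (64.5%), and 33 of 51 on the host's strand did (64.7%).

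After tRNA:Pro-CGG-2-3 the strongest summits lay at a threonine gene and at serine and tryptophan genes. tRNA:Thr-AGT-1-4 (3R:16431940-16432013, plus strand, in an intron of CG31279) had a summit of signal value 3034 at -100 bp, with 982, 1162 and 974 in replicates 1, 2 and 3. tRNA:Ser-GCT-2-5 (3R:22397572-22397653, plus strand) had 2447 at -69 bp, with 708, 847 and 923. Its nearest start of another kind was 3399 bp from the summit, but 2 tRNA starts lay within 500 bp of that summit. tRNA:Ser-TGA-2-1 (2R:23072581-23072662, plus strand) had 2347 at -112 bp, with 576, 797 and 1008 in the replicates. tRNA:Trp-CCA-2-2 (2R:18639557-18639628, plus strand) had 2139.9 at -267 bp, with 641, 743 and 782, but its summit was 20 bp from the start of CG30122. Only the Ser-GCT and Ser-TGA summits of these 5 had no start of another kind within 1000 bp. Each of them had 2 tRNA starts within 500 bp, so neither peak can be assigned to 1 gene.

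The largest clusters held 7 and 6 genes. In the isoleucine and leucine cluster at 2R:13430282-13432794 all 7 genes had a reproducible summit, from 5 summits of signal value 195 to 446. In the arginine and serine cluster at X:14014814-14017284, 3 of 7 genes had one. Those were tRNA:Arg-TCG-2-1, tRNA:Ser-CGA-1-1 and tRNA:Ser-CGA-1-2 at the left end, beside summits of 346 and 246, whereas the 4 Arg-TCG-3 genes to the right had signal values of at most 72.6. The cysteine and lysine cluster at 3L:3095737-3097590 had a summit at 6 of 6 genes, and the asparagine and arginine cluster at 3R:8139533-8141042 at 5 of 6. Summits in the cysteine and lysine cluster were near the lower limit of the set, from 158 to 249.

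**Figure D4:**
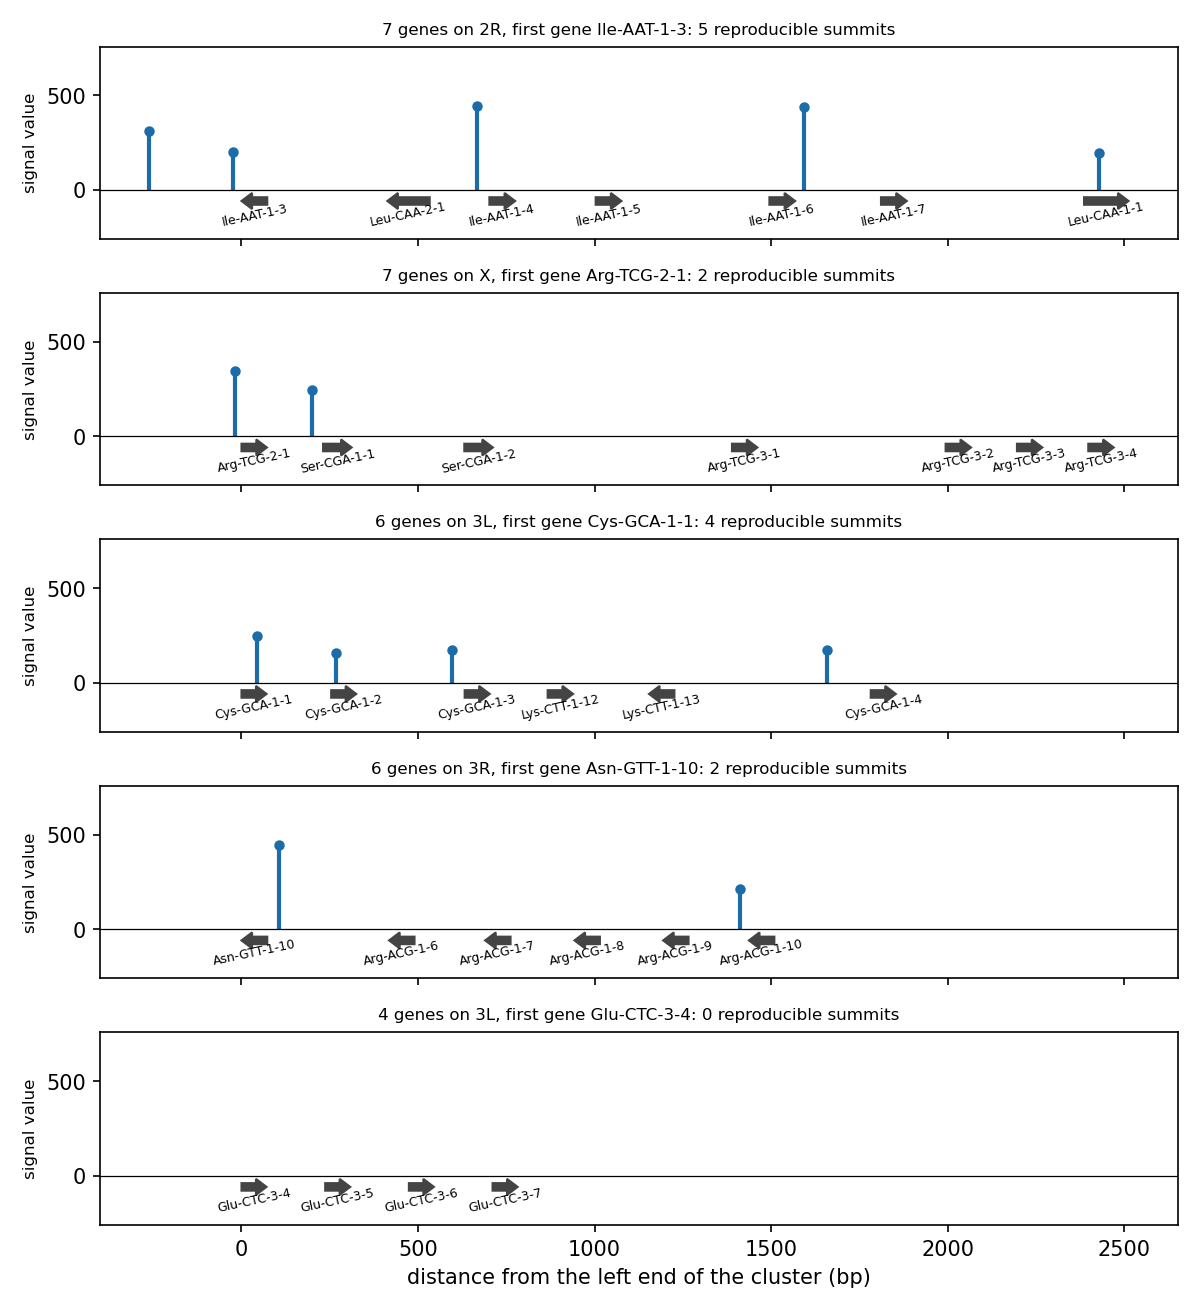
Reproducible summits (stems, height is the signal value) and tRNA genes (arrows, in the direction of transcription) against distance from the left end of the cluster (bp), for the 4 largest clusters and the cluster of 4 glutamate genes without a summit. Summits are spread along the isoleucine and cysteine clusters, but lie only at the left end of the arginine and serine cluster on X.

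No reproducible summit was found at 3 clusters of 3 or more genes. The 4 identical genes tRNA:Glu-CTC-3-4 to tRNA:Glu-CTC-3-7 at 3L:1397695-1398477 had relaxed summits of 42.2 to 95.5, while identical copies in the clusters to either side had reproducible summits of up to 258 at 5 of 5 genes. The glycine cluster tRNA:Gly-GCC-1-4 to tRNA:Gly-GCC-1-6 (2L:14518091-14518691) had relaxed summits of 46.1 to 70.8. The last of them, on X, held tRNA:Ser-CGA-1-3, tRNA:Arg-TCG-1-1 and tRNA:Ser-AGA-3-2 (X:14103363-14104730), with 84.0 to 112.

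Repeated sequence moved with part of this. The share of 32-base words within 250 bp of the start that occur once on the main chromosome arms was under 50% at 8 genes. None of the 8 had a reproducible summit. They were tRNA:Glu-CTC-3-5 to tRNA:Glu-CTC-3-7, tRNA:Arg-TCG-3-1 to tRNA:Arg-TCG-3-3 and 2 of the Lys-TTT genes, tRNA:Lys-TTT-2-2 and tRNA:Lys-TTT-2-3. The sources used here do not give how the authors treated reads that map to several places, and its part in these absences was not tested. Of the 282 genes at 50% or more, 190 had a summit (67.4%). The lower and upper quartiles of this share were 86.1% and 91.0% for genes with a summit and 88.5% and 92.2% for genes without one, and its median was 89.5% for tRNA genes on X and 90.3% off X.

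Genes with the same sequence did not share the same outcome. The 290 genes had 95 distinct sequences, and 238 genes had at least 1 identical copy. Of 43 families of identical copies, 28 held genes with and without a reproducible summit, 11 had one at every copy and 4 at none. Only 2 families of 2 genes stayed identical with 20 bp of flank added, and neither was mixed. In the largest mixed family, Gly-GCC-1, 4 of 13 copies had a summit, in Asp-GTC-1 10 of 12 and in Ala-AGC-2 8 of 11. With the relaxed list, 14 families were mixed.

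The aspartate and alanine copies show how alike such genes are. The sequences below run from 50 bp upstream to 20 bp past the gene, on the gene's strand in the Release 6 genome (RefSeq copy), with the A box and the B box GTTCNANNC, or GATCNANNC in alanine, in capitals. The first of each family had a reproducible summit and the second had none.
Asp-GTC-1-1: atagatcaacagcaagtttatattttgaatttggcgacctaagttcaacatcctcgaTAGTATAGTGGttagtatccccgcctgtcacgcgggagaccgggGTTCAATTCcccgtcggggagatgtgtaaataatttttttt
Asp-GTC-1-10: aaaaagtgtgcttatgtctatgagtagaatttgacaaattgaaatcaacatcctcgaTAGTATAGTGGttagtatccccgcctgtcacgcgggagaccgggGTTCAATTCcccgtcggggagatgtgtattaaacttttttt
Ala-AGC-2-4: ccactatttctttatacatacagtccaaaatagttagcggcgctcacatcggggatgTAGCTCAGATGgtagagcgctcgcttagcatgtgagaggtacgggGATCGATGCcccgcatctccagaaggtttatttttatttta
Ala-AGC-2-9: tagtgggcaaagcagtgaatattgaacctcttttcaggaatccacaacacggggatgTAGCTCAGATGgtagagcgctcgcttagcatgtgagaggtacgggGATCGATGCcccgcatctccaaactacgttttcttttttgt
The printed stretches are 2L:5241086-5241227 (minus strand), 3L:13249497-13249638 (plus strand), 3R:17622496-17622638 (plus strand) and 3R:17658361-17658503 (minus strand). tRNA:Asp-GTC-1-1, in an intron of tkv, had a summit of signal value 268 at -14 bp, with 66.3, 61.3 and 176 in replicates 1, 2 and 3. tRNA:Asp-GTC-1-10, in an intron of caps, had a relaxed summit of 102 at -94 bp, with 19.3 in replicate 1 and 19.5 in replicate 3, and none within 500 bp in replicate 2. tRNA:Ala-AGC-2-4 had a summit of 310.0 at 5 bp, with 47.6, 111 and 164 in the replicates. tRNA:Ala-AGC-2-9, in an intron of CG14322, had a relaxed summit of 50.5 at -82 bp, with 10.1 in replicate 1 and 20.9 in replicate 3, and none within 500 bp in replicate 2. In both pairs the copy with a reproducible summit was higher in replicates 1 and 3 and was the only one listed in replicate 2. The pairs were picked by the reproducible set, which rests on these same replicates, so this order is not separate evidence. The gene bodies within each pair are identical and the printed flanks differ. The copies also differ in setting. The nearest start of another kind is 434 bp from tRNA:Ala-AGC-2-4, that of CG14323, and 4975 bp from tRNA:Ala-AGC-2-9. tRNA:Asp-GTC-1-1 lies in a locus of 2 genes, whereas tRNA:Asp-GTC-1-10 is lone. The part of flank or setting in the outcome was not tested.

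**Figure D5:**
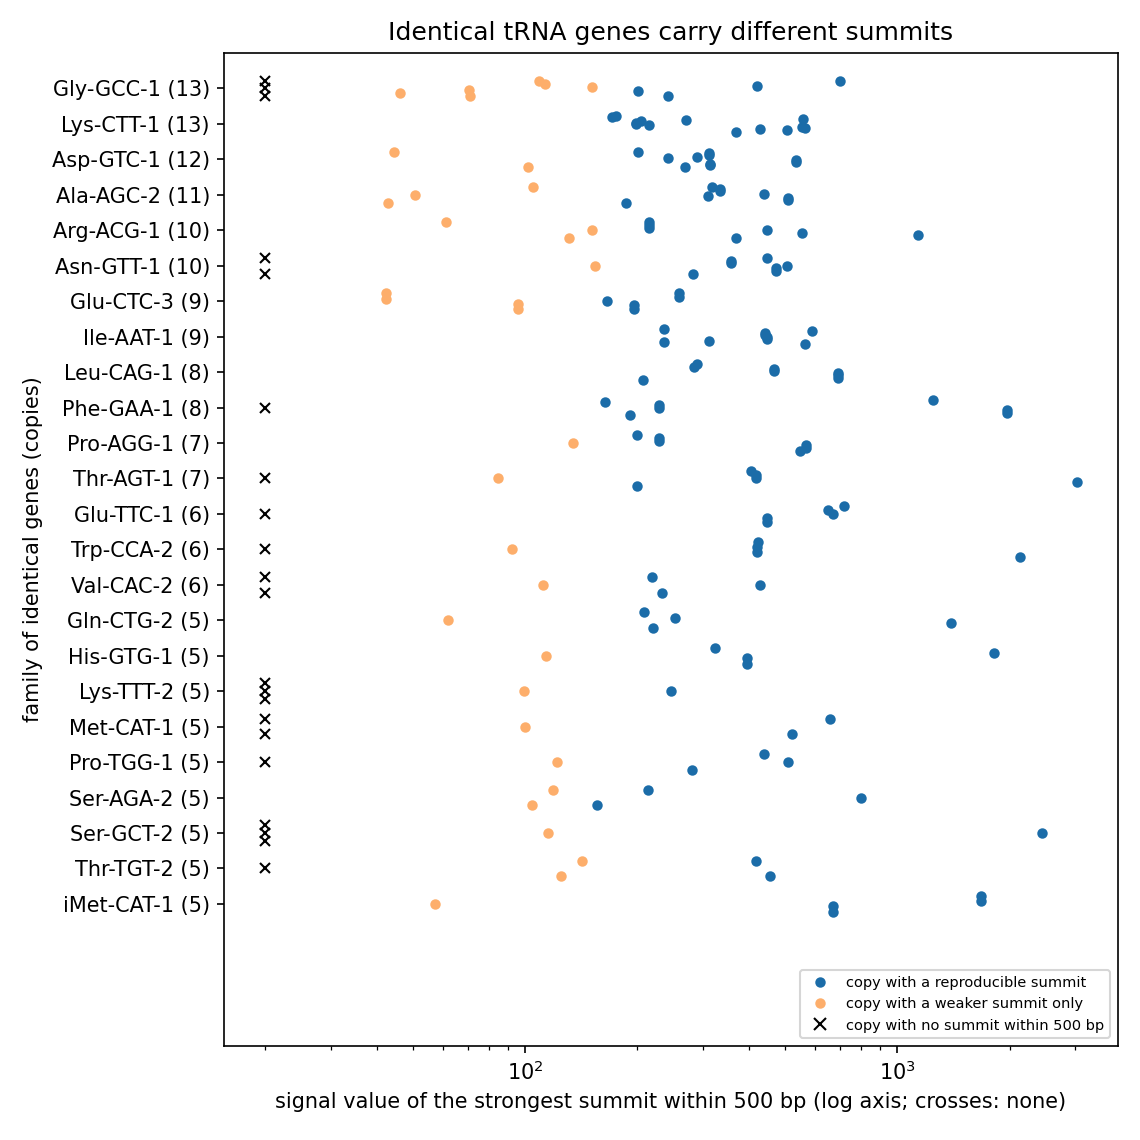
Signal value (log axis) of the strongest summit within 500 bp of each copy, for families of 5 or more identical tRNA genes, with the number of copies in brackets. Blue points are copies with a reproducible summit, orange points copies with a weaker pooled summit, and crosses copies with none; Lys-CTT-1 has reproducible summits at 13 of 13 copies and Gly-GCC-1 at 4 of 13.

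An intron, spliced out of the transcript, is annotated in 16 tRNA genes, and 11 of them had a reproducible summit (68.8%), against 179 of 274 without an intron (65.3%). They were all 4 Leu-CAA genes, both Ile-TAT genes and 5 of 10 Tyr-GTA genes. The Ile-TAT genes are printed whole, since both had a summit and they differ only in the intron, given in capitals (3L:769503-769600 and 3L:770363-770462, both plus strand, Release 6 genome).
Ile-TAT-1-1: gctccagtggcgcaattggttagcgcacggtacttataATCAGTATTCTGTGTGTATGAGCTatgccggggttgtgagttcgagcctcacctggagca
Ile-TAT-1-2: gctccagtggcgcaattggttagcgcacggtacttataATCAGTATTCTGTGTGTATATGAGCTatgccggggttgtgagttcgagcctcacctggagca
tRNA:Ile-TAT-1-1 had a summit of signal value 724 at -21 bp, with 131, 189.9 and 399 in replicates 1, 2 and 3. tRNA:Ile-TAT-1-2 had one of 404 at 8 bp, with 76.4, 113 and 222. The first gene was higher in every library, and the nearest start of another kind was 13993 bp from its summit. The Tyr-GTA genes with a summit were tRNA:Tyr-GTA-1-4 to tRNA:Tyr-GTA-1-8 in a pair of loci on 3R, while the 3 on 2L and the pair on X had none.

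Motifs around the summits were counted at tRNA sites and at all other reproducible summits. The others include 6894 at protein-coding starts, and those away from any start were not counted apart. In windows of 100 bp to each side of the summit, searched on both strands, GTTCNANNC was found in 97 of 149 windows at tRNA genes (65.1%), which follows from the nearby genes, and in 6.88% of all other windows. TATCGATA, the core of the DNA replication-related element found at many housekeeping promoters, was in 3 of 149 windows (2.01%), against 9.63%. GGTCACAC, part of core promoter motif 1, was in 2 of 149 (1.34%), against 8.95%, and neither was in any of the 92 windows with no start of another kind within 1000 bp. GAGAG, the letters bound by GAGA factor, was in 48 of 149 (32.2%), against 27.8%, and none of these motifs contains another. In the 100 bp upstream, tRNA genes with a summit had a median A and T content of 62.0%, and those without one 64.0%.

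Genes of other small RNAs, chosen by name as RNAs often made by polymerase III, were read beside the tRNA genes. Which polymerase makes each of them in the fly, RNaseP:RNA among them, was not examined. Of 10 genes for U6, U6atac, 7SK, 7SL, RNase P and RNase MRP RNAs, 4 had a reproducible summit. This is near the share of all annotated genes, 42.3%. The 4 were RNaseMRP:RNA (272), snRNA:7SKa (223), snRNA:U6:96Ab and snRNA:U6:96Ac. The U6 pair shared a summit of 1605, at 403 bp from the start of snRNA:U6:96Ab and at -120 bp from that of snRNA:U6:96Ac. Those without one were both 7SL genes, RNaseP:RNA, snRNA:7SKb, snRNA:U6:96Aa and snRNA:U6atac. The 100 genes named for 5S ribosomal RNA, a tandem array of near-identical copies on 2R, had no summit in either list. Some of them are named as pseudogenes. The part of reads that map to many copies in these absences was not tested.

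The matched genes that encode the machinery all had a summit within 500 bp of a start. Some lay far from it, such as at 407 bp for Rpp25 and -398 bp for Pus1. Whether starts of other genes were nearer to these summits was not examined. All 26 listed genes for polymerase III subunits and factors had a reproducible summit within 500 bp, against 50.3% of protein-coding genes, with a median signal value of 898. The strongest were Maf1 (2617), the repressor of polymerase III, and Polr2F (2336) and Polr2H (1670), subunits shared with the other polymerases. All 25 matched genes for tRNA maturation and modification had one too, led by Elp2 (2338), a subunit of Elongator, which modifies the wobble base, Rpp20 (1959) of RNase P, which trims the leader of the precursor, and wuho (1928), which serves in tRNA methylation. Rpp40, RtcB1, Trmt1, Trmt10A and Gtpbp3 did not match a gene by symbol or synonym. The medians of these lists, 898 and 833, are taken over genes, and the 358 at tRNA genes over distinct summits. Counted per gene with a summit, the medians were 416 at tRNA genes without an intron and 392 at those with one, also under both lists.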

How the data were processed

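Binding of E(bx) was measured by chromatin immunoprecipitation with sequencing in 3 replicates of 1 group. The dm6 lists were used: per replicate, called on pooled reads, and an optimal IDR set. The deposited lists hold a signal value per peak, whose scale is not stated, and a −log10 q-value deposited by the authors, which did not rank peaks. Aligner, caller, IDR threshold and treatment of multiply mapping reads: not given in the sources used here. The lists carry no read totals, so depth is unknown and intervals from depth were left out. The dm3 lists were not used, and the 1 peak on Y in the pooled list and in replicate 1 was left out.

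Summits (deposited start plus offset, counted from 1) were set against Ensembl release 115 gene models and the Release 6 sequence with Python 3.11.15, numpy 2.4.6 and pandas 2.3.3, without transposable elements. A gene had a summit if one lay within 500 bp of a start. Replicates were compared through their best 9708 peaks by signal value. The distance code was tested on simulated data. Counts over tRNA genes are descriptions beside the same count over all genes, with no test.

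Members and lists were chosen with earlier results of these data known. Genes named are those at the 5 strongest summits, in the 3 clusters with most genes (with a tie), in mixed identical families, in empty clusters of 3 or more, with introns, and the 3 strongest of each other list. Alternatives tried were other windows, cluster gaps and distances to other starts, the peaks above the set's median signal, single replicates, leaving out each replicate, flanks added to identical copies and the relaxed list. An alternative limited to genes with 50% or more unique words was chosen after seeing the data.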

Additional observations from a re-analysis of the deposited data

How the results depend on the processing

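The count of 190 tRNA genes with a reproducible summit stayed within 1.5 times under windows of 250 and 1000 bp, distance from the gene body (191), each replicate's own list and, in an alternative chosen after seeing the data, genes with 50% or more unique words (190 of 282). No annotated member is named as a pseudogene, so leaving such genes out gave 190 again, and counting every cluster once is the share of loci. Limiting the set to peaks above its median signal lowered the count to 59 genes and 36 loci, and the share of genes, 20.3%, then lay under the 30.7% of all genes. Keeping only peaks matched in both other libraries, which can only remove peaks, gave 159 to 163 genes, 87 to 92 loci and 97 to 102 stand-alone genes. Measured per gene, the median position of the summit nearest each of the 190 genes was -27 bp. Medians were -23 bp at lone genes and -30.5 bp at genes with no start of another kind within 1000 bp. In replicate 2 the median was -30 bp, and all of these lay upstream of the start. Signal values gave way to median ranks of 6997.5, 6594.5 and 5164 in replicates 1, 2 and 3, which are on another scale. Of 28 families of identical copies that differed in peaks, 0 were left when 20 bp flanks had to match, since only 2 families then remained, and 14 with the pooled relaxed list. No paired analysis was possible because there was a single group. Depth is unknown, so an absent summit is not shown to be an absent site.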
